A study of Homo sapiens with 6 samples.

Results

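The heat shock and chaperone genes of HCT116 cells, a human colorectal cancer line, were followed through 6 RNA-seq libraries. The set held 47 genes, chosen by symbol: the heat shock factors, cytosolic HSP70 and HSP110, HSP90, the mitochondrial chaperones, small heat shock proteins, J-domain proteins, BAG proteins, cofactors of HSP90 and HSP70, the CCT ring, prefoldin and a collagen chaperone. All 47 were found among the 58302 genes of the deposited table, and all 47 passed the filter on low counts that left 16414 genes for testing.

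Total RNA was taken from cells transfected with a negative control siRNA (si-NC) or with siRNA against SLCO1B3 (si-SLCO1B3), a gene for an organic anion transporter, to find which transcripts follow its loss. Each group has 3 libraries, which carry the numbers 1, 3 and 5 in their titles. The labels list 1 control sequence for all si-NC libraries and a different siRNA sequence for each si-SLCO1B3 library, so within that group the number and the siRNA sequence cannot be told apart. The sequence of si-SLCO1B3 library 3 is one that the study set aside after its knockdown screen, and its array methods name only the sequence that the labels give for library 5. What else the numbers stand for is not given in the labels, and neither is whether the libraries of a group came from separate cultures, so the p-values measure the spread between these libraries.

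Chaperones bind unfolded protein. HSP70 binds short exposed stretches in cycles driven by ATP, J-domain proteins deliver clients and start the ATP hydrolysis, and BAG and HSP110 proteins exchange the nucleotide. HSP90 acts later on more folded clients with the help of cofactors, and the CCT ring folds actin and tubulin that prefoldin hands over. Heat and other protein-damaging conditions free heat shock factor HSF1 from chaperones, and it then binds repeats of a short element in the promoters of inducible chaperone genes.

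The libraries held 17290442 to 21278903 counts, of which the 47 genes took 2.23% to 2.64%. SLCO1B3, the targeted gene, was at 8.88, 14.2 and 20.7 CPM (TMM-scaled counts relative to sequencing depth) in si-NC libraries 1, 3 and 5 and at 5.86, 9.16 and 3.15 in si-SLCO1B3 libraries 1, 3 and 5. The groups overlapped between 8.88 and 9.16 CPM, and a two-sided exact permutation test of the means gave p = 0.2, where 3 libraries against 3 can give no less than 0.1. Among colon epithelium markers EPCAM lay between 395 and 452 CPM, while VIL1 had at most 2 counts in any library. When the 2 libraries numbered 5 were tested against the other 4 in edgeR, 807 genes passed an adjusted p of 0.05. The siRNA fit of the counts was therefore also run without the libraries numbered 5. The labels do not set number 5 apart from numbers 1 and 3, so this split is not part of the stated design. Other splits by number were not tested. The 807 genes therefore do not show that number 5 differs more than another number would. In the edgeR fit used below, SLCO1B3 had a log2 fold change of -1.27 ± 0.43 (SE). Its unadjusted p in that fit was 0.0207 and its adjusted p 0.9998. At each number the si-SLCO1B3 library lay below the si-NC library. Yet si-SLCO1B3 library 3 had the highest SLCO1B3 of its group and lay above si-NC library 1. The label si-SLCO1B3 therefore names the siRNA given, since the lower transcript did not separate the groups.

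No chaperone gene was called between si-SLCO1B3 and si-NC. Counts were tested by edgeR's quasi-likelihood method, with p-values adjusted over all 16414 genes (Benjamini-Hochberg). The count was 0 of 47 at an adjusted p under 0.05, and it was also 0% (0 genes) over all genes. This fit had no term for number 5, so the spread between numbers was part of its error. The SE of the log2 fold change was 1.07 in HSPA1A, 1.08 in HSPA1B and 0.53 in DNAJB1. A missed threshold therefore does not show that the groups were alike. An unadjusted p under 0.05 was reached by 1 of the 47 genes, or 2.13%, against 4.36% of all genes tested. limma-voom and DESeq2 also called 0 of the 47, with 2 and 0 at an unadjusted p under 0.05. Over all genes they called 0 and 25, with 737 and 722 at an unadjusted p under 0.05. The fit with the library number as a replicate block gave 0 called and 2 unadjusted, and libraries 1 and 3 alone gave 0 and 1. Over all genes the block gave 0 and 1175, and libraries 1 and 3 alone gave 2 and 829. The median log2 fold change of the 47 genes was -0.06, beside 0.00 (0.0049) over all genes, with 16 genes above 0 and 31 below. Without si-SLCO1B3 library 3 it was -0.03, with 0 of the 47 called and 0 at an unadjusted p under 0.05. Its sign turned when si-NC library 5 was left out (0.07), and also without si-SLCO1B3 library 1 (0.03).

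The single unadjusted difference was in CRYAB, the small heat shock protein alpha-B crystallin, which was barely detected. It lay at 0.614, 0.569 and 1.19 CPM in si-NC libraries 1, 3 and 5 and at 0.320, 0.407 and 0.340 in the si-SLCO1B3 libraries. The groups did not overlap, and the log2 fold change was -1.14 ± 0.42 (SE), with an unadjusted p of 0.0273 and an adjusted p of 0.9998. These levels rest on 6 to 22 counts a library, and 20.6% of the exon bases of CRYAB lie opposite exons of HSPB2 and a readthrough transcript. DESeq2 gave no adjusted p for CRYAB.

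The si-SLCO1B3 libraries were all above the si-NC libraries in 2 of the 47 genes (TRAP1 and STUB1), a share of 4.26% beside 5.01% of all genes tested. They were all below in 3, CRYAB among them (the others were DNAJB6 and CCT3), or 6.38% beside 5.50%. DNAJB6, a J-domain protein that holds back protein aggregation, was at 111, 102 and 109.5 CPM in si-NC libraries 1, 3 and 5 and at 91.5, 68.2 and 96.5 in those of si-SLCO1B3. The log2 fold change was -0.33 ± 0.15, with an unadjusted p of 0.0542. TRAP1, the mitochondrial HSP90, was at 317, 322 and 322 CPM in the controls and at 324, 348 and 371 CPM in si-SLCO1B3, a log2 fold change of 0.12 ± 0.09. STUB1, the ubiquitin ligase CHIP that marks chaperone clients for degradation, was at 30.8, 33.0 and 32.0 CPM in the controls and at 34.0, 40.2 and 35.5 CPM in si-SLCO1B3, a log2 fold change of 0.19 ± 0.12. In STUB1 42.4% of the exon bases lie opposite exons of JMJD8, and in TRAP1 29.3% lie opposite exons of DNASE1. Whether reads were counted by strand is not given in the sources used here.

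HSF1, the factor that drives the heat shock response, was at 67.7, 62.5 and 80.6 CPM in si-NC libraries 1, 3 and 5 and at 90.3, 86.6 and 80.3 in si-SLCO1B3. The 2 groups met at number 5, where both were near 80 CPM, and the log2 fold change was 0.29 ± 0.13 with an unadjusted p of 0.0567. CDC37, which brings protein kinases to HSP90, had a log2 fold change of 0.28 ± 0.15, and its highest value, 231 CPM, was in si-SLCO1B3 library 3 alone, with 139.7 to 176 in the other 5. CCT3, a subunit of the CCT ring, had a log2 fold change of -0.16 ± 0.09.

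SERPINH1 (HSP47), the collagen chaperone of the endoplasmic reticulum, was at 208, 93.7 and 177 CPM in si-NC libraries 1, 3 and 5 and at 84.0, 104 and 137 in si-SLCO1B3, a log2 fold change of -0.56 ± 0.30. All 6 fibroblast markers examined (COL1A1, COL1A2, COL3A1, DCN, LUM and PDGFRA) were detected in every library, with summed levels of 208, 135 and 237 CPM in controls and of 117, 162 and 147 CPM in si-SLCO1B3, none of them at 0. Their part in the SERPINH1 and CRYAB values was not tested. Leukocyte markers summed to 6.56 to 15.5 CPM and endothelial markers to 2.84 to 5.36 CPM. Most of the leukocyte sum was LYZ, at 4.90 to 13.5 CPM. PTPRC was at 0.398 to 1.61 CPM, and CD3E, CD79A and CD14 had too few counts to be tested.

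**Figure D1:**
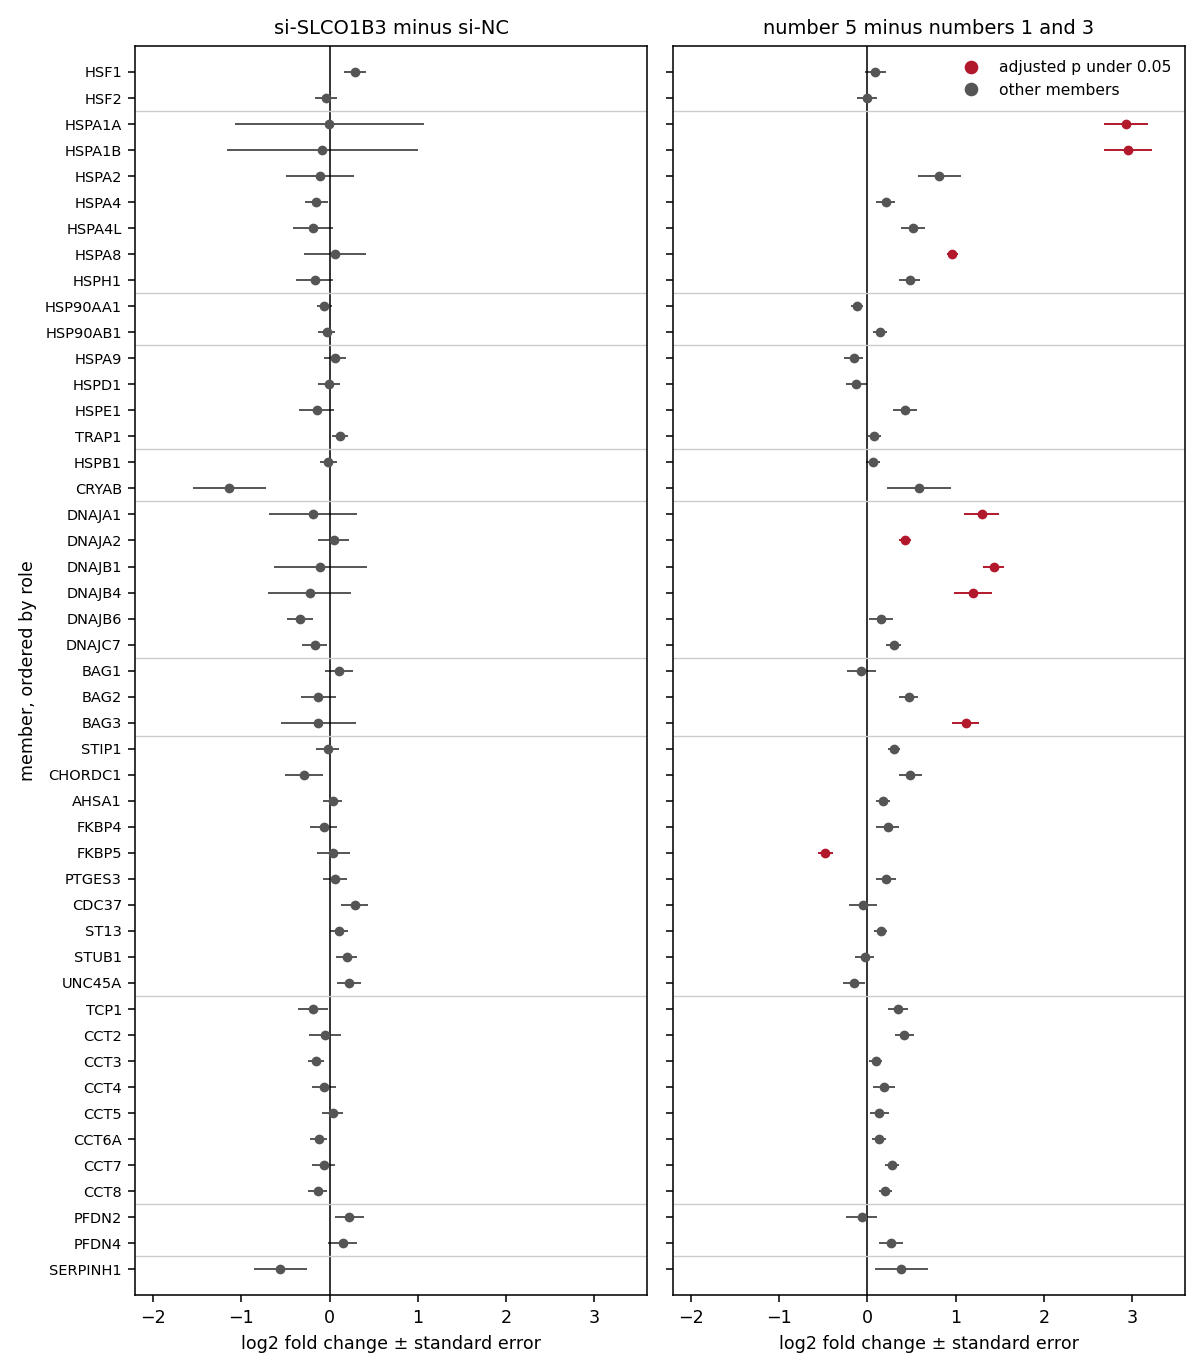
Log2 fold changes of the 47 chaperone genes with standard errors, si-SLCO1B3 minus si-NC on the left and libraries numbered 5 minus numbers 1 and 3 on the right, in the same order by role. No gene passes an adjusted p of 0.05 on the left, and 9 pass on the right (red), led by HSPA1B and HSPA1A at 2.95 and 2.93.

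The libraries numbered 5 differed from numbers 1 and 3 in 9 chaperone genes, of which 8 were higher and 1 was lower. The 8 were HSPA1A, HSPA1B, HSPA8, DNAJA1, DNAJA2, DNAJB1, DNAJB4 and BAG3, all of the HSP70 system, and the gene that was lower was FKBP5. In this comparison, fitted with a term for the siRNA group, 17% of the members were called higher beside 2.0% of all genes tested, and 2.13% were called lower beside 2.92%. At an unadjusted p under 0.05, 20 members (42.6%) were higher beside 13.5% of all genes, and 1 (2.13%) was lower beside 15.6%. Both libraries numbered 5 were above the other 4 in 26 members (55.3%, beside 18.7%) and below them in 2 (4.26%, beside 19.9%). Scaled by total counts without TMM factors, which put the median log2 ratio of all genes at -0.07, these counts were 18 (38.3%, beside 13.8% of all genes) and 3 (6.38%, beside 24.9%).

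An adjusted p under 0.05 with a log2 fold change above 2 was met by HSPA1A and HSPA1B alone among the members (4.26%), and by 9 genes, or 0.0548%, of all tested. Some calls lay near the threshold: without the filter on low counts FKBP5 was at an adjusted p of 0.0550, and under limma on log2(FPKM + 1) DNAJA2 and DNAJB4 were at 0.0518 and 0.0562. The median log2 fold change of the members was 0.21, beside -0.01 over all genes, and 37 members were above 0. Without HSPA1A and HSPA1B it was also 0.21 (0.2079). DESeq2 called 17 of the 47, where it called 2087 genes in all. Each fit that left out a library had fewer calls: 14 genes or fewer in all, and 1 member without si-NC library 1, 2 without si-SLCO1B3 library 1, 3 without si-SLCO1B3 library 3, and 0 without si-NC library 3, si-NC library 5 or si-SLCO1B3 library 5.

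**Figure D2:**
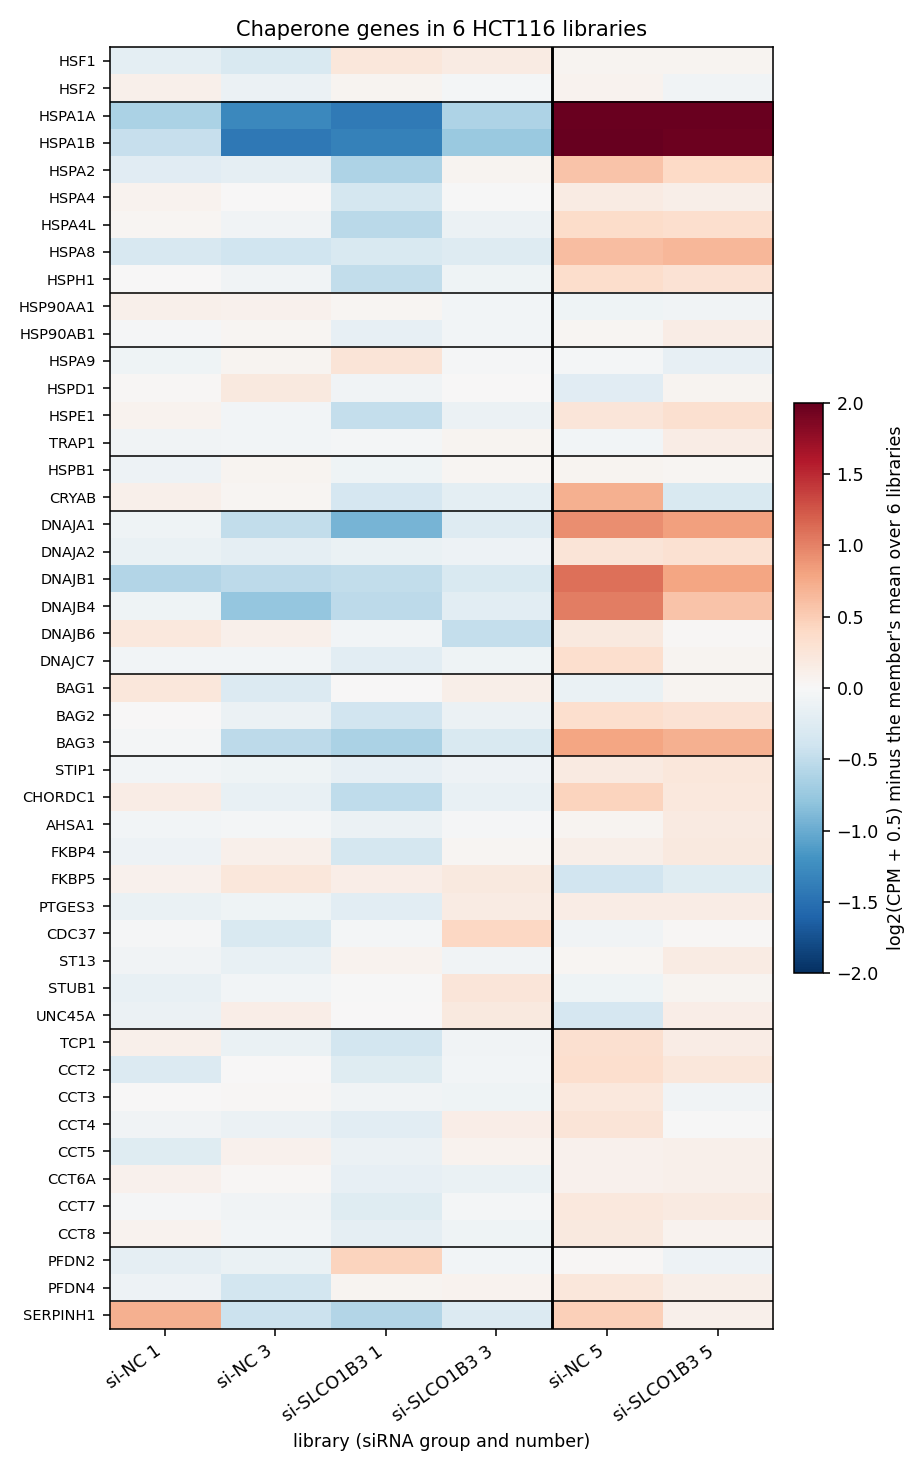
Each of the 47 chaperone genes (rows, grouped by role) in the 6 libraries (columns), as log2(CPM + 0.5) minus the gene's mean over the libraries, with color limits at -2 and 2. The columns numbered 5 stand to the right of the thick line, and red there is densest in the HSP70, J-domain and BAG rows, while the HSP90, mitochondrial and prefoldin rows are pale.

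The inducible cytosolic HSP70 genes HSPA1A and HSPA1B carried the largest differences. HSPA1A was at 90.0, 57.4, 52.5 and 91.2 CPM in si-NC 1, si-NC 3, si-SLCO1B3 1 and si-SLCO1B3 3, and at 554 and 555 CPM in si-NC 5 and si-SLCO1B3 5. The groups were far apart, with a 7.62-fold difference, a log2 fold change of 2.93 ± 0.25 and an adjusted p of 0.0166. HSPA1B was at 39.8, 20.1, 21.2 and 32.8 CPM in the same 4 libraries and at 226 and 216 CPM in the libraries numbered 5, a log2 fold change of 2.95 ± 0.28 with an adjusted p of 0.0233. The step was present in both siRNA groups: the ratio of number 5 to the mean of numbers 1 and 3 was 7.51 in si-NC and 7.73 in si-SLCO1B3 for HSPA1A, and 7.55 and 7.98 for HSPA1B. The genes are near-identical copies that lie side by side on chromosome 6, at 31815464 to 31817946 and 31827735 to 31830255 (GRCh38), so reads may be split between them, and another annotated gene shares 36.5% of the exon bases of HSPA1B. Summed into 1 gene they were at 73.7 to 129.8 CPM in numbers 1 and 3 and at 771 and 780 CPM in number 5, with an adjusted p of 0.0180.

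HSPA8, the constitutive HSC70 that works in all cells without stress, was at 1072, 1010, 1082 and 1111 CPM in the 4 libraries numbered 1 and 3, in the same order. It was at 2051 and 2113 CPM in those numbered 5. The 4 lower libraries lay close together, and the log2 fold change of 0.96 ± 0.06 had the smallest p of all members (adjusted p = 0.0107). The other HSP70 and HSP110 genes leaned the same way without passing: HSPH1, the HSP110 exchange factor, was at 371 to 523 CPM against 637 and 667 (log2 fold change 0.48 ± 0.12, adjusted p = 0.0705). HSPA2, an HSP70 best known from the testis, was at 1.76 to 3.10 CPM against 4.08 and 4.66 (0.82 ± 0.24, adjusted p = 0.0927). The 7 HSP70 and HSP110 genes together summed to 2048 to 2433 CPM in numbers 1 and 3 and to 4275 and 4279 CPM in number 5.

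J-domain proteins, the partners that load HSP70, gave 4 of the 9 calls. DNAJB1 (HSP40), a stress-inducible partner of HSP70, was at 106, 111, 113 and 129 CPM in si-NC 1, si-NC 3, si-SLCO1B3 1 and si-SLCO1B3 3, and at 341 and 277 CPM in si-NC 5 and si-SLCO1B3 5. No library numbered 1 or 3 came near those 2, and the log2 fold change was 1.43 ± 0.12 with an adjusted p of 0.0166. DNAJA1 was at 224, 168, 124 and 198 CPM against 453 and 418 (1.29 ± 0.20, adjusted p = 0.0355). DNAJB4 was at 38.4, 23.8, 28.2 and 35.3 CPM against 83.9 and 61.3 (1.19 ± 0.22, adjusted p = 0.0432). The fourth, DNAJA2, moved least, from 105, 102, 105 and 108 CPM to 139 and 143 (0.42 ± 0.07, adjusted p = 0.0402). DNAJB6 and DNAJC7 did not pass, with log2 fold changes of 0.16 ± 0.14 and 0.30 ± 0.08. DNAJA2, DNAJB4 and FKBP5, like DNAJC7, BAG2, CHORDC1 and CCT2, are named because of their values.

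BAG3, the exchange factor that links HSP70 to the small heat shock proteins and to selective autophagy, was at 147, 106, 97.4 and 123 CPM in numbers 1 and 3 and at 262 and 249 CPM in number 5. The log2 fold change was 1.11 ± 0.15, with an adjusted p of 0.0337. BAG2, which holds back CHIP, was at 55.9 to 73.4 CPM against 89.7 and 92.1 and did not pass (0.47 ± 0.11, adjusted p = 0.0594). Of its exon bases, 44.2% lie opposite exons of RAB23 and ZNF451-AS1. BAG1, an exchange factor that ties HSP70 to the proteasome, was at 18.6 to 26.4 CPM against 20.5 and 23.5, and these ranges overlapped.

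**Figure D3:**
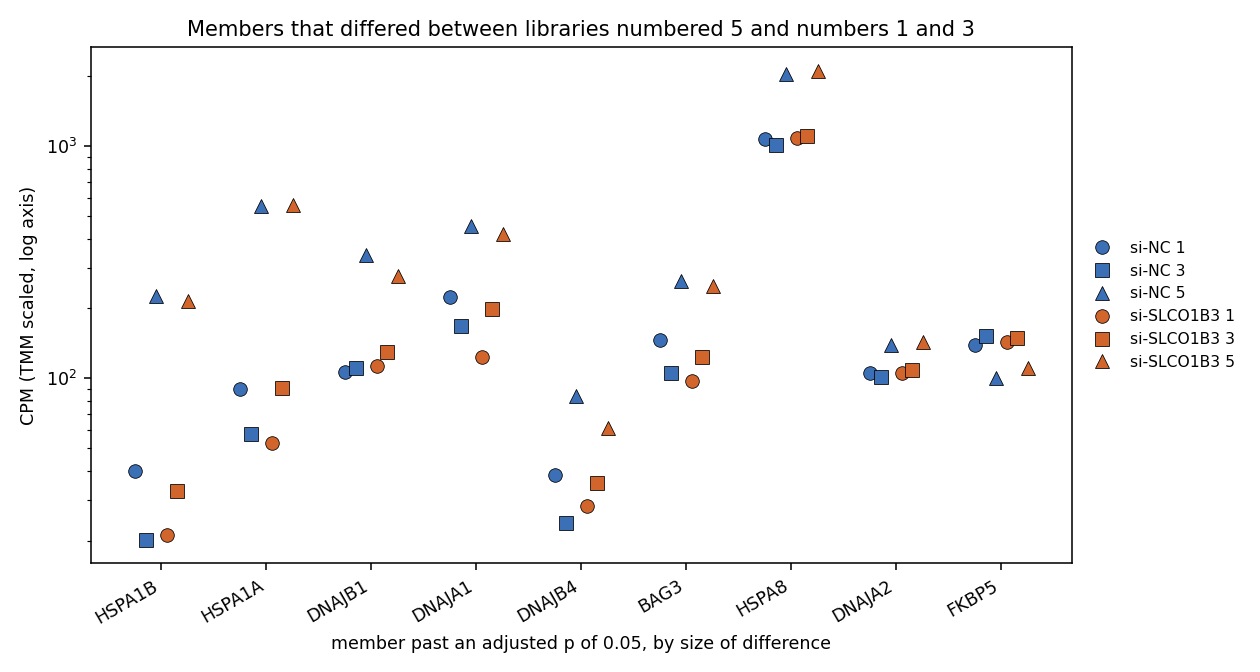
CPM (TMM scaled, logarithmic axis) of the 9 chaperone genes past an adjusted p of 0.05 between libraries numbered 5 and numbers 1 and 3, with 1 point per library; blue is si-NC, orange si-SLCO1B3, and triangles mark number 5. In 8 genes both triangles lie above every circle and square, and in FKBP5 both lie below.

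The HSP90 chaperones were the most abundant members and did not pass the test. HSP90AA1, the inducible HSP90, was at 5174, 5123, 4970 and 4678 CPM in numbers 1 and 3 and at 4567 and 4615 CPM in number 5. Both number 5 libraries were thus the lowest, by a log2 fold change of -0.12 ± 0.07 (adjusted p = 0.305). HSP90AB1, the constitutive form, was at 5252, 5447, 4771 and 5130 CPM against 5493 and 5900 (0.15 ± 0.08, adjusted p = 0.274). By the deposited FPKM, which divide counts by a gene length, HSP90AB1 had the highest mean level of the 47 (1357 FPKM) and CRYAB the lowest (0.0742 FPKM). The gene lengths behind those FPKM ranged from 0.901 to 3.09 times the merged exon lengths of GENCODE 29, so smaller gaps between genes depend on the lengths used.

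Among the HSP90 and HSP70 cofactors FKBP5, a cochaperone of steroid receptors and a known glucocorticoid target, was the one gene that was lower. It was at 139, 153, 143 and 149 CPM in numbers 1 and 3 and at 99.9 and 110.4 CPM in number 5. The groups did not overlap, with a log2 fold change of -0.47 ± 0.08 and an adjusted p of 0.0428. STIP1 (HOP), which couples HSP70 to HSP90, was at 535 to 579 CPM against 681 and 699 (0.30 ± 0.07, adjusted p = 0.0582). CHORDC1, an HSP90 cofactor, was at 123 to 192 CPM against 201 and 238 (0.49 ± 0.13, adjusted p = 0.0770). CDC37 and STUB1 had log2 fold changes of -0.05 ± 0.16 and -0.03 ± 0.11.

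The mitochondrial chaperones gave 0 calls, with 1 unadjusted p under 0.05 (HSPE1). HSPD1 (HSP60), the mitochondrial folding chamber, was at 1217, 1367, 1134 and 1200 CPM in numbers 1 and 3 and at 1017 and 1240 CPM in number 5, so si-NC library 5 was the lowest of the 6 and si-SLCO1B3 library 5 lay within the range of the other 4. HSPE1 (HSP10), the lid of that chamber, was at 133, 122, 91.0 and 117 CPM against 150.1 and 158 (0.42 ± 0.14, adjusted p = 0.108). Pseudogenes of HSPE1 took up to 17.4% of the counts of HSPE1 and its pseudogenes together, and those of HSPD1 up to 9.65%. HSPA9 (mortalin), the mitochondrial HSP70, was at 791 to 1006 CPM against 753 and 814 (-0.16 ± 0.11), and TRAP1 at 317 to 348 CPM against 322 and 371 (0.08 ± 0.07). The 4 genes summed to 2458 to 2682 CPM in numbers 1 and 3 and to 2303 and 2522 CPM in number 5.

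All 8 genes of the CCT ring had positive log2 fold changes, from 0.10 to 0.42, yet none was called. The sign of all 8 was the same under total-count, DESeq2 and FPKM scaling, while the median log2 ratio of the ring was 0.20 under TMM and 0.13 under total counts, where the median of all genes was -0.07. TCP1, the subunit CCT1, was at 325 to 449 CPM in numbers 1 and 3 and at 465 and 523 CPM in number 5 (0.35 ± 0.11, adjusted p = 0.105). CCT2 had the smallest adjusted p of the 8, at 0.0691. CCT4 was at 408 to 514 CPM against 465 and 565 (0.19 ± 0.12), and those ranges overlapped. In the prefoldin genes, whose product passes actin and tubulin to the ring, PFDN2 was at 104 to 162 CPM against 110.3 and 120 (-0.06 ± 0.17), and PFDN4 at 25.9 to 35.6 CPM against 36.8 and 39.5 (0.26 ± 0.14, adjusted p = 0.251).

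The heat shock factors did not pass either. HSF1 was at 62.5 to 90.3 CPM in numbers 1 and 3 and at 80.3 and 80.6 CPM in number 5 (0.09 ± 0.12, adjusted p = 0.658). HSF2, a related factor active in development and differentiation, was at 26.6 to 30.9 CPM against 27.5 and 30.2 CPM, with a log2 fold change of 0.00 (-0.0011) ± 0.11. HSPB1 (HSP27), the abundant small heat shock protein of epithelial cells, was at 342, 383, 345 and 378 CPM in numbers 1 and 3 and at 383 and 376 CPM in number 5 (0.07 ± 0.08, adjusted p = 0.620). SERPINH1 and CRYAB had log2 fold changes of 0.39 ± 0.30 and 0.59 ± 0.37, and CRYAB was above the other libraries in si-NC 5 alone.

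Whether the number 5 difference differed between si-NC and si-SLCO1B3 was tested as an interaction. Each group has 1 library numbered 5, so the spread came from libraries 1 and 3 alone, and a p that misses the threshold does not show that the differences were alike. None of the 47 genes passed an adjusted p of 0.05, beside 0.0122% of all genes tested, with a smallest adjusted p of 0.994. An unadjusted p under 0.05 was found for 3 members (HSF1, HSPD1 and DNAJB1), or 6.38% beside 4.56% of all genes. limma-voom gave 0 called and 3 unadjusted, and DESeq2 0 and 0. Over all genes limma-voom gave 3 and 741, and DESeq2 gave 80 and 497. In DNAJB1 the ratio of number 5 to the mean of numbers 1 and 3 was 3.15 in si-NC and 2.28 in si-SLCO1B3, a log2 difference of -0.46 (adjusted p = 0.994). In HSPD1 the ratios were 0.787 and 1.06.

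Other measures were compared across the library numbers too. Mitochondrially encoded genes took 8.06% and 8.90% of counts in the libraries numbered 5 and 6.70% to 7.63% in the others. The colon epithelium markers summed to 5010 and 4483 CPM in number 5 against 3425 to 4235 CPM, with 1 of 6 tested called (KRT18, log2 fold change 0.51). The list did not move as one: KRT8 was at 2364 and 2059 CPM against 1212 to 1906 (0.51 ± 0.12, adjusted p = 0.0605), EPCAM had a log2 fold change of -0.06, and CDH1 was lower, at 102 and 104 CPM against 117 to 165 (-0.45 ± 0.16, adjusted p = 0.128). The fibroblast markers summed to 237 and 147 CPM in number 5 against 117 to 208 CPM, ranges that overlapped, with 0 of 6 called. Their part in the chaperone values was not tested.

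Another 91 genes of the same pathways that are not members were listed in 6 groups, and 82 of them were tested. In number 5 against 1 and 3, 4 of the 82 were called higher and 0 lower, beside 328 and 479 of all 16414 genes tested. At an unadjusted p under 0.05, 26 of the 82 were higher and 6 lower, beside 13.5% and 15.6% of all genes. The median log2 fold change of the 82 was 0.17, beside -0.01 over all genes. The 4 called higher were JMJD6, a jumonji-domain protein (1.24), DEDD2, a death-effector-domain protein (0.95), GRPEL1, the nucleotide exchange factor of HSPA9 (0.56), and TTC4, an HSP90 cofactor (0.44). JMJD6 was at 54.7, 42.2, 35.9 and 47.2 CPM in numbers 1 and 3 and at 109 and 102 CPM in number 5. HSPA6, an HSP70 that is transcribed almost only under strong stress, had 2 counts in each library but si-SLCO1B3 5, where it had 7, and was not tested. By group, calls were 0 of 28 HSP70, J-domain and exchange factors, 0 of 2 small heat shock proteins, 1 of 15 HSP90 cofactors, 0 of 11 prefoldin and tubulin cofactors, 1 of 12 mitochondrial genes and 2 of 14 heat-inducible genes. si-SLCO1B3 against si-NC called 0 of the 82 in edgeR, beside 0% of all genes. At an unadjusted p under 0.05 there were 2, beside 4.36% of all genes.

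The promoters of the members were searched for the heat shock element, since HSF1 binds it. Sequence was taken from RefSeq windows of 250 bases before to 50 bases after each start site (GRCh38.p14), which were given for 40 of the 47 genes. A 2-unit match is GAANNTTC or TTCNNGAA, each the same on both strands, and a 3-unit match is the run of 3 alternating units made by overlapping 2-unit matches. A 2-unit match stood in 20 of the 40 genes (50%), beside 16.2% of all genes with a window, and a 3-unit match in 8 (20%), beside 0.608%. Among the 8 members called higher in number 5, 6 held a 2-unit match and 2 a 3-unit match (HSPA8 and DNAJA1). Among the other 32 with a window, 14 and 6 did, and these include HSP90AA1, HSP90AB1 and HSPD1, whose log2 fold changes lay between -0.12 and 0.15. BAG3 and DNAJA2, called higher, had no such letters in their windows. A match describes letters and is not a measured binding site.

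The following stretches show the matches of the called members that lie outside annotated exons and, last, those of HSP90AB1, which did not pass the test. Capitals mark the 2-unit matches, with up to 20 bases on each side and bases in GENCODE 29 exons left out, which leaves no match of HSPA8 or DNAJA1 to print. They are read on the strand of the gene, from RefSeq, GRCh38.p14: HSPA1A at chr6:31815417-31815463 (plus strand), HSPA1B at chr6:31827613-31827660 (plus), DNAJB1 at chr19:14518421-14518494 (minus), DNAJB4 at chr1:78004821-78004853 (plus) and HSP90AB1 at chr6:44247758-44247863 (plus).
HSPA1A: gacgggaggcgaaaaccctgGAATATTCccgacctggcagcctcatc
HSPA1B: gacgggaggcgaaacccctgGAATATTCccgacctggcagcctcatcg
DNAJB1: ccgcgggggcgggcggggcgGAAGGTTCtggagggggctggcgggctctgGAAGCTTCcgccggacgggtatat
DNAJB4: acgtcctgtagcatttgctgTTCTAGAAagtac
HSP90AB1: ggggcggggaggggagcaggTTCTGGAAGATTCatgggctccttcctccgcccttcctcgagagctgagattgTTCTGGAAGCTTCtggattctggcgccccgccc
HSPA1A and HSPA1B show the same match in nearly the same surroundings, 106 and 105 bases before the start. DNAJB1 has 2 separate 2-unit matches, and HSP90AB1 has 2 pairs, each of which overlaps into a 3-unit match. The HSP90AB1 window belongs to 1 of its 3 RefSeq starts, and the DNAJB4 and DNAJB1 windows to the second of 2 and 3.

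The siRNA sequences were also compared with the members. The site that pairs with guide bases 2 to 8 of the siRNA in si-SLCO1B3 library 3 is in the 3′ UTR of 6 of the 47 genes (12.8%), beside 18.2% of 13115 genes with an annotated 3′ UTR. The 6 were BAG1, BAG2, DNAJB6, FKBP4, HSPA4 and ST13. Their median si-SLCO1B3 minus si-NC log2 fold change was -0.10, and that of the members without the site was -0.05, where all genes with and without it had medians of -0.09 and 0.03. The sites of the siRNAs in libraries 1 and 5 were in 5 and 3 members (10.6% and 6.38%, beside 16.6% and 9.66% of all genes), and that of the control siRNA in 0 (beside 3.10%). Medians of members with and without the site were -0.064 and -0.057 for library 1, and -0.19 and -0.057 for library 5. Over all genes they were -0.01 and 0.01 for library 1, and -0.04 and 0.01 for library 5. Each fold change pools the 3 si-SLCO1B3 libraries, of which only 1 carries a given siRNA. DNAJB6 and BAG1 each held sites for the siRNAs of libraries 1 and 3. Library 3 was the lowest of its group in DNAJB6, at 68.2 CPM, and the highest of its group in BAG1, at 24.4 CPM.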

How the data were processed

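RNA of 6 HCT116 libraries was sequenced, 3 transfected with si-NC and 3 with si-SLCO1B3. The authors deposited whole-number read counts per gene and FPKM made from them. The submitters' processing notes name CASAVA 1.8, fastp 0.19.5, HISAT2 2.1.0, edgeR and the builds hg38 and GRCh38; the counting program is not given in the sources used here. The methods list 3 siRNA sequences against SLCO1B3 and describe a microarray of cells given the first, whereas the labels describe sequencing and give each si-SLCO1B3 library its own sequence.

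Genes were matched to GENCODE 29 (99.55% of the table). Tests of the deposited counts used edgeR 4.0.16 under R 4.3.3 (TMM; filterByExpr, min.count 10 and min.total.count 15; quasi-likelihood test; Benjamini-Hochberg over 16414 genes), for siRNA group alone, for number 5 with a group term, and for their interaction. CPM are TMM scaled, and errors are standard errors of log2 fold changes unless named otherwise. The biological coefficient of variation was 21.6% in the first fit and 16.8% in the second. Depth was 17290442 to 21278903 counts. The tests of siRNA group and of number 5 were checked on simulated counts, with changes in 1 contrast at a time. The simulated siRNA comparison thus held no number 5 difference, and the check does not cover that feature of the real libraries. Alternatives were limma-voom (limma 3.58.1), DESeq2 1.42.0, its size factors, no filter, limma on log2(FPKM + 1), a replicate block, and leaving out each library; the number 5 term, libraries 1 and 3 alone, HSPA1A and HSPA1B summed, and all alternatives of the interaction were chosen after seeing the data.

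Same-numbered libraries deviated together from their group means, with r over genes of 0.12, 0.171 and 0.463 for numbers 1, 3 and 5. Genes are not independent replicates. For different numbers r was -0.359 to 0.271. The rule used here (r over 0.1 for every number) was thus met. Meeting it does not show that numbers 1 and 3 pair the libraries, since number 1 against number 3 also gave r over 0.1. Only number 5 stood apart, at 0.463 beside -0.359 to -0.198 against the other numbers. The reported values are from the fits without pairs, and the replicate block is an alternative. si-SLCO1B3 library 1 and si-NC library 3 correlated more with each other (0.271) than with their own numbers, and si-NC library 1 more with si-SLCO1B3 library 3 (0.128).

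The members and lists were chosen with earlier results of these data known. Named genes are a fixed set of 21 members, the 6 smallest p-values in each comparison, members whose siRNA groups do not overlap, and the highest and lowest FPKM per role. TBCE was not matched.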

Additional observations from a re-analysis of the deposited data

Results flagged for a closer look

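In the 4 libraries numbered 1 and 3, 2 of the 47 chaperone genes had a library far from the other 3 by Dixon's ratio, where chance flags about 1 in 20. PFDN2, a prefoldin subunit, was at 162 CPM in si-SLCO1B3 library 1 and at 104 to 114 CPM in the others. SERPINH1 was at 208 CPM in si-NC library 1 and at 84.0 to 104 CPM in the others.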

How the results depend on the processing

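With 2 libraries numbered 5 and 1 in each siRNA group, calls depend on the spread assumed for few libraries, and leaving out any of them lowered the calls over all genes as well. For si-SLCO1B3 against si-NC the count of 0 members called held under every alternative run, the replicate block included. Over all genes DESeq2 called 25, where the main fit called 0. The members at an unadjusted p under 0.05 were 2 under limma-voom, 0 under DESeq2, 0 under limma on log2(FPKM + 1), 2 under the replicate block, 3 with a number 5 term and 0 to 3 when a library was left out, against 1. Over all genes these counts were, in the same order, 737, 722, 766, 1175, 1445 and 411 to 936, against 716. The replicate block changed no other call. In number 5 against 1 and 3, DESeq2 called 17 members and leaving out a library 0 to 3, against 9; no filter on low counts called 8 (without FKBP5) and limma on log2(FPKM + 1) called 7 (without DNAJA2 and DNAJB4); the median log2 fold change was 0.14 under limma on log2(FPKM + 1) and 0.18 to 0.30 when a library was left out, against 0.21. For the interaction, 0 members had an unadjusted p under 0.05 under DESeq2 and under limma on log2(FPKM + 1), against 3. Over all genes these counts were 497 and 692, against 749. None of the 9 called members changed sign under any of the 12 or 13 alternatives of this comparison run for each. In each of the 9, both libraries numbered 5 lay beyond all the others. Leaving out a library could therefore hardly turn the sign, and the stable sign is no separate support for the calls. Among members that were not called, HSF2 in the number 5 contrast turned to 0.01 under DESeq2 (0.0071), DESeq2 size factors (0.0075) and no filter (0.0121). Leaving out a library turned HSF2 (-0.066 to 0.070), BAG1 (-0.16 to 0.059), HSF1 (-0.13 to 0.31), HSPD1 (-0.35 to 0.10), CRYAB (-0.091 to 1.00), PFDN2 (-0.31 to 0.18), CDC37 (-0.18 to 0.092) and STUB1 (-0.077 to 0.035). The cause was not tested. Tests of the called members ran from an adjusted p of 2.22e-26 (DESeq2) to 0.160 (without si-SLCO1B3 library 5) for HSPA1A, whose log2 fold change stayed between 2.78 and 3.13.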
